A study of Homo sapiens with 6 samples.

Results

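Genes of homologous recombination, the Fanconi anaemia pathway, mismatch repair and the DNA damage checkpoint were followed in a prostate cancer line made to overexpress miR-338-5p or miR-421. The set held 37 genes chosen by name, and every probe carrying one of those names on the array was read, 63 probes in all. At least 1 probe of 36 genes passed the filter on dim spots, 56 probes together, out of 21697 gene names with such a probe and 43317 on the array. BRIP1, a helicase that binds BRCA1, was the exception, since its only probe was well above background in control RNA on 2 of the 6 arrays and in the miRNA lines on 0.

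All RNA came from 22RV1, an established line of human prostate carcinoma, described in the labels as positive for SPINK1, a secreted trypsin inhibitor. Stable lines carried the lentiviral vector pLemiR-338-5p, pLemiR-421 or, as control, pLemiR-RFP, which encodes a red fluorescent protein, and all were grown with puromycin. Each of 6 Agilent 2-colour arrays compared control RNA, labelled with Cy3, with RNA of a miRNA line, labelled with Cy5. The groups were miR-338-5p with replicates 1, 2 and 3, and miR-421 with a sample titled a pool and replicates 1 and 2. What was pooled, whether the numbered samples are clones, and whether the replicates were separate cultures is not given in the sources used here, so the p-values measure the spread between these samples alone. Selection for the vector was the same in control and miRNA lines. Since Cy5 always held the miRNA line, with no swap of dyes, any dye bias of a probe is part of its ratio.

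Double-strand breaks and stalled replication forks are repaired without loss of sequence by homologous recombination. The MRE11-RAD50-NBN complex and RBBP8 trim the broken ends, BRCA1, PALB2 and BRCA2 prepare the single strands for strand exchange, and XRCC2, XRCC3 and their relatives and the RAD54 proteins support that exchange. Fanconi proteins open a route past DNA cross-links: a core complex with the ubiquitin ligase FANCL marks the FANCD2-FANCI pair. The kinases ATM and ATR sense breaks and single-stranded DNA and act through CHEK2 and CHEK1 to hold the cell cycle. In prostate cancer several of these genes, BRCA2 and ATM among them, are recurrently mutated, and miR-421 has been described as a regulator of ATM in other cells. Many of the genes are transcribed mainly in dividing cells.

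The mature miRNAs are shown because they are the agents tested, with the seed (bases 2 to 8, which pair with target messenger RNAs) in capitals. RefSeq places hsa-miR-338-5p at chr17:81125923-81125944 and hsa-miR-421 at chrX:74218392-74218414, both on the minus strand of GRCh38.p14.
hsa-miR-338-5p: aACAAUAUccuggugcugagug
hsa-miR-421: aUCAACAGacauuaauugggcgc
The seeds are different, and sites for them in transcripts were not analysed here.

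Between 44.3% and 47.9% of gene spots were well above background in Cy3 and between 41.9% and 48.3% in Cy5. The lowest Cy5 share was that of miR-421 replicate 1, and saturated gene spots numbered 0. All 10 prostate line markers examined, KLK3 among them, were well above background in the control channel on all 6 arrays. Of 5 fibroblast markers, COL1A2, COL3A1 and THY1 were so on no array, PDGFRB on 3 and COL1A1 on all 6. Each of 4 leukocyte markers was detected by some probe. The part of these markers in the repair gene values was not tested.

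Values below are log2 ratios with control as the denominator, and those below 0 mean less signal in the line with the miRNA. Where 3 values stand in a row, they are replicates 1, 2 and 3 of miR-338-5p, or the pool and replicates 1 and 2 of miR-421. Each gene is represented by its brightest tested probe, means are given ± SD with n = 3 arrays, and p-values are from limma, adjusted by the Benjamini-Hochberg method over all tested probes, with 0.05 as the threshold.

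In the miR-338-5p line limma called 8 of the 36 genes lower and 0 higher. At an unadjusted p under 0.05 these numbers were 18 and 0. The 8 past the adjusted threshold were the checkpoint kinases ATR, CHEK1 and CHEK2, the Fanconi genes FANCB, FANCL and FANCM, and the strand exchange partners RAD54L and RAD54B. The background over all gene names was 5.26% lower and 3.99% higher. The median over the 36 genes was -0.28, with 29 below 0, beside -0.0007 over all gene names. On single arrays the median of the genes was -0.083 in replicate 1, -0.43 in replicate 2 and -0.47 in replicate 3, so replicate 1 stood nearest to control.

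In the miR-421 line 15 genes fell and 1, PMS2, rose, where the background was 12.6% lower and 10.0% higher. The 15 were ATR, CHEK1, CHEK2 and TOPBP1 of the checkpoint, FANCA, FANCB, FANCL, FANCM and FANCD2 of the Fanconi pathway, and BARD1, XRCC2, RAD51AP1, RAD54B, NBN and RBBP8 of recombination. The median was -0.47, with 28 of 36 below 0, beside 0.0062 over all gene names. By array it was -0.69 in replicate 1, -0.27 in replicate 2 and -0.25 in the pool. Replicate 1 was the lowest of the 3 arrays for 23 of the 36 genes.

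Passing both comparisons with control were 7 genes: RAD54B, FANCB, FANCL, FANCM, ATR, CHEK1 and CHEK2. The share of all gene names passing both was not computed, so no excess is read from this count. The comparisons rest on the same fit, and whether 1 control culture supplied all 6 arrays is not given in the sources used here. Of the 36 genes, 20 were below 0 on all 6 arrays, and 1, FANCE, was above 0 on all of them, where 17.1% and 13.3% of all gene names did so.

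These calls depended on single arrays. Under miR-338-5p, limma called 0 genes without its replicate 2 and 0 without its replicate 3 (at an unadjusted p under 0.05, 12 lower with 2 higher, and 12 lower), 3 without its replicate 1, 4 without the miR-421 pool, 2 without miR-421 replicate 2 and 15 without miR-421 replicate 1. Under miR-421, 1 gene (FANCM) passed without its replicate 2, 6 without its replicate 1, 9 without the pool, and 13, 10 and 10 without miR-338-5p replicate 1, 2 or 3. Of 18 alternative settings, the miR-338-5p call was kept in 14 for FANCM, 11 each for FANCL and FANCB, 9 each for RAD54L and CHEK2, 7 for RAD54B and 5 each for ATR and CHEK1. The arrays of 1 line bear on the other line's count because all 6 share an estimate of the spread. Calls over all gene names moved with the arrays as well. Under miR-338-5p, 5.26% were lower with all arrays, 1.19% without its replicate 2 and 0.894% without its replicate 3. Without miR-421 replicate 1 that share was 8.16%. Under miR-421 it was 12.6% with all arrays, 6.29% without its replicate 1 and 1.44% without its replicate 2. The dependence on arrays is thus not particular to these genes.

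**Figure D1:**
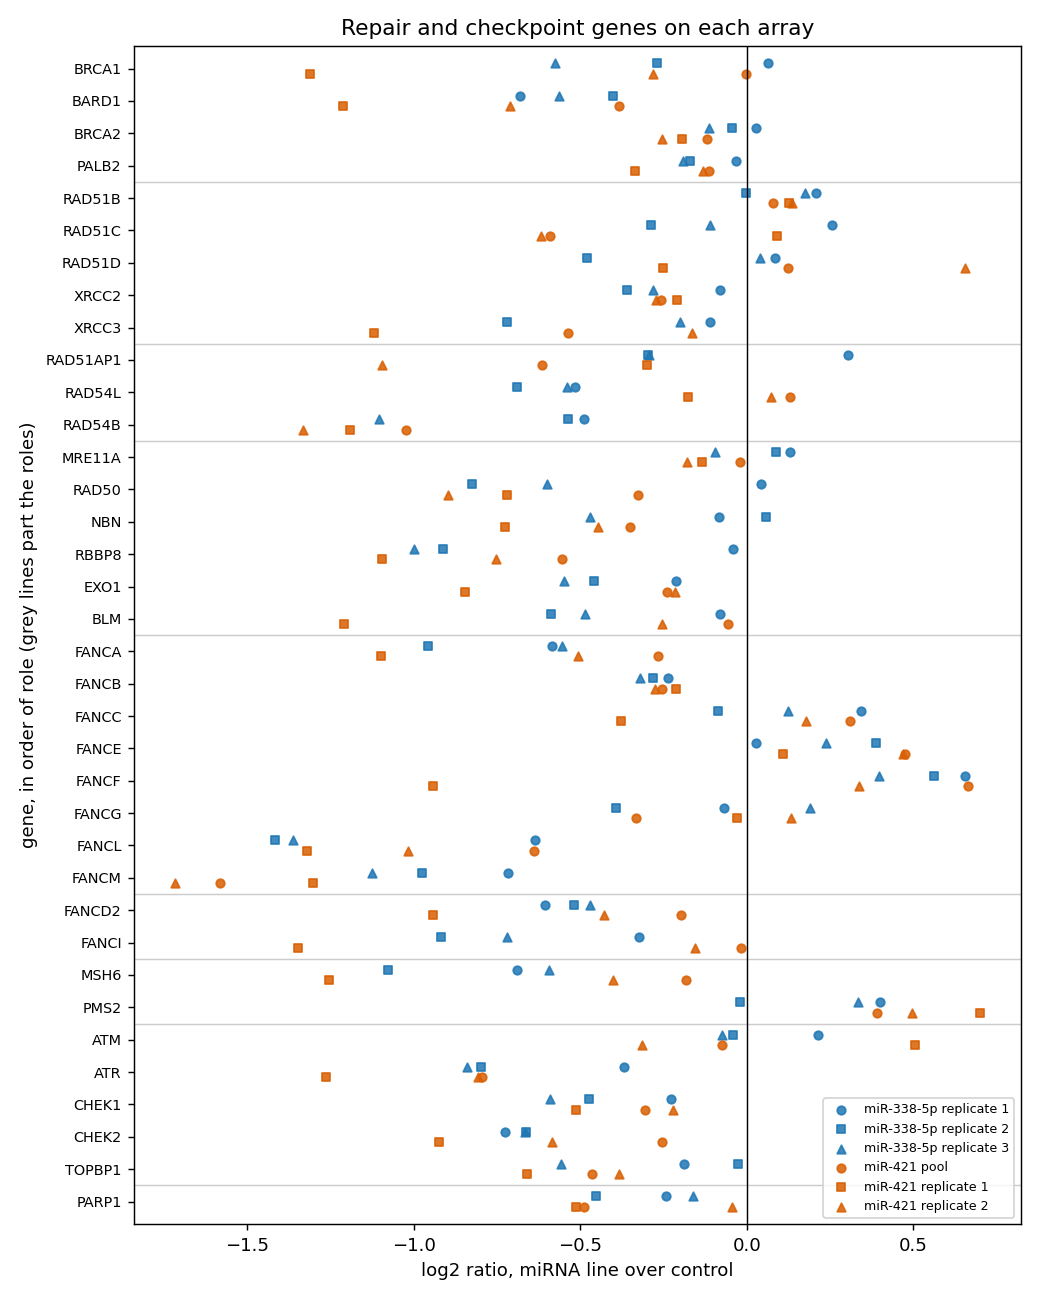
Log2 ratio of the miRNA line over control (x axis) for each of the 36 tested genes (y axis, in order of role) on each of the 6 arrays; blue marks are miR-338-5p, orange marks miR-421, and shapes tell the arrays apart. Marks of 20 genes lie left of 0 on all arrays, FANCM lies farthest left under miR-421, and FANCE alone lies right of 0 on all arrays.

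Among the checkpoint genes, 3 of 5 fell in the miR-338-5p line and 4 of 5 in the miR-421 line. ATR, the kinase that answers to single-stranded DNA at stalled forks, had a log2 ratio under miR-338-5p of -0.37 in replicate 1, -0.80 in replicate 2 and -0.84 in replicate 3. Under miR-421 it was -1.27 in replicate 1, -0.81 in replicate 2 and -0.80 in the pool. The lower of these ranges lay under miR-421, though the groups overlapped. ATR averaged -0.67 ± 0.26 under miR-338-5p, 62.9% of control (adjusted p = 0.0365), and -0.96 ± 0.27 under miR-421, 51.5% of control (adjusted p = 0.00917). The call under miR-421 was kept in 17 of 18 alternative settings, and that under miR-338-5p in 5. Under miR-338-5p the image software's own ratio gave -0.96 (limma, adjusted p = 0.137) and the authors' deposited table a mean of -1.03 (limma, adjusted p = 0.132), larger falls that did not pass. A second, dim ATR probe was below 0 on all arrays, but its means were only -0.19 and -0.15. It passed in neither comparison (limma, adjusted p = 0.0902 and 0.106), so the size of the ATR fall rests on the brighter probe.

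CHEK1, the kinase that ATR activates, was -0.23, -0.48 and -0.59 in miR-338-5p replicates 1 to 3. In the miR-421 pool and replicates 1 and 2 it was -0.30, -0.51 and -0.22. It was below 0 on all arrays with overlapping groups, averaging -0.43 ± 0.19 (adjusted p = 0.0427) and -0.35 ± 0.15 (adjusted p = 0.0451). Both calls lay near the threshold, and each was kept in 5 of 18 alternative settings.

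CHEK2, the kinase downstream of ATM, was -0.73, -0.66 and -0.67 on the miR-338-5p arrays, nearly the same on each. On the miR-421 arrays the pool stood at -0.25, replicate 1 at -0.92 and replicate 2 at -0.59. The mean was -0.68 ± 0.035 (adjusted p = 0.0288) and -0.59 ± 0.34 (adjusted p = 0.024), or 62.2% and 66.5% of control. CHEK2 had 4 probes, and all 4 were below 0 on every array and past the threshold in both comparisons. Its SD under miR-338-5p was the smallest of the 36 genes.

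Both overlapping probes of CHEK2 are shown because CHEK2 had the most probes past the threshold, and because they show how alike such probes can be. They share 30 bases that differ at 1, in capitals, so they are not separate readings of the gene. Each also shares a run of at least 16 bases, the length searched for, with a probe of XLOC_l2_004553. Pseudogene copies of the 3' part of CHEK2 exist, and their share of these signals was not tested.
CHEK2 probe at chr22:29085156-29090031 (hg19, ends of a spliced match): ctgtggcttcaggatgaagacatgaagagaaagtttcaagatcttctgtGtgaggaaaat
CHEK2 probe at chr22:29085126-29085185 (hg19): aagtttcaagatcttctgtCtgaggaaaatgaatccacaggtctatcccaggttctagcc
A further CHEK2 probe, whose 60 bases lie nearer the start of the transcript, at chr22:29121275-29121334, also fell: -0.32, -0.30 and -0.42 on the miR-338-5p arrays and -0.28, -0.27 and -0.37 on the miR-421 arrays.
CHEK2 probe nearer the start: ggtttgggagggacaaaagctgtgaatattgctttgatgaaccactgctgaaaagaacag

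ATM, the kinase that answers to double-strand breaks, passed in neither comparison. Its tested probe (NM_000051, at chr11:108099942-108100001, hg19) gave 0.21 in replicate 1, -0.042 in replicate 2 and -0.075 in replicate 3 under miR-338-5p. Under miR-421 it gave 0.50 in replicate 1, -0.32 in replicate 2 and -0.073 in the pool. The miR-421 arrays fell on both sides of 0, with replicate 1 the highest, and the mean was 0.038 ± 0.42 (adjusted p = 0.887), 103% of control. The 2 other ATM probes did not pass the filter, being well above background on 0 arrays in either dye. Of these, the probe on NM_000051 lies at transcript position 9405, against 607 for the tested probe. Statements on ATM therefore rest on 1 probe, and whether it reads the full ATM messenger RNA was not tested.

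TOPBP1, which activates ATR at damaged forks, was -0.19, -0.027 and -0.56 under miR-338-5p (adjusted p = 0.205). Under miR-421 it was -0.46, -0.66 and -0.38, a fall to 70.6% of control (adjusted p = 0.0293). The image software's ratio put it at -1.53 under miR-421.

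Of the 10 Fanconi genes 3 fell in the miR-338-5p line and 5 in the miR-421 line. FANCM, the translocase that anchors the core complex on DNA, had the lowest mean of all 36 genes under miR-421. Its probe (NM_020937, at chr14:45669210-45669269, hg19) gave -0.72 in replicate 1, -0.97 in replicate 2 and -1.13 in replicate 3 under miR-338-5p. Under miR-421 it gave -1.30 in replicate 1, -1.72 in replicate 2 and -1.58 in the pool. All 3 miR-421 arrays lay below all 3 miR-338-5p arrays. The level averaged 52.1% of control under miR-338-5p (-0.94 ± 0.21, adjusted p = 0.012) and 34.5% in the miR-421 line (-1.53 ± 0.21, adjusted p = 0.00255). The fall under miR-421 passed in all 18 alternative settings and that under miR-338-5p in 14.

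FANCL, the ubiquitin ligase of the core complex, had the lowest mean under miR-338-5p, with -0.64 in replicate 1, -1.42 in replicate 2 and -1.36 in replicate 3. Under miR-421 it showed -1.32 in replicate 1, -1.02 in replicate 2 and -0.64 in the pool. Replicate 1 of miR-338-5p and the miR-421 pool were the mildest, and the groups overlapped. The means were -1.14 ± 0.44 (adjusted p = 0.0249) and -0.99 ± 0.34 (adjusted p = 0.0201), 45.4% and 50.3% of control. A second, dimmer FANCL probe ran the same way, with -0.61 and -0.51, short of the threshold (adjusted p = 0.0588 and 0.0569).

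FANCB, a scaffold of the core complex, lay close together on all arrays, with -0.24, -0.28 and -0.32 on the miR-338-5p arrays and -0.26, -0.21 and -0.28 on the miR-421 arrays. It passed in both comparisons (adjusted p = 0.0276 and 0.0213). Its probe is dim, and the offset added to the background correction shrinks the ratios of dim probes. The image software's ratio for FANCB was -1.13 and -1.45 in the same order, so the size of its fall differs with the processing.

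FANCA, another core subunit, was -0.59, -0.96 and -0.55 under miR-338-5p, short of the threshold (adjusted p = 0.0557), and -0.27, -1.10 and -0.51 under miR-421 (adjusted p = 0.0465). Without miR-421 replicate 1 its miR-421 mean was -0.39 and its call was lost. The other 2 FANCA probes lay nearer 0, with means between -0.18 and 0.0052.

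FANCE, FANCF, FANCC and FANCG, also core subunits, passed in neither comparison. FANCE was 0.027, 0.39 and 0.24 on the miR-338-5p arrays and 0.47, 0.11 and 0.47 on the miR-421 arrays (adjusted p = 0.0578). FANCF was 0.66, 0.56 and 0.40 under miR-338-5p (adjusted p = 0.295), while under miR-421 its pool stood at 0.67, its replicate 1 at -0.94 and its replicate 2 at 0.34. That spread, an SD of 0.85, was the largest of the 36 genes. Without miR-421 replicate 1, FANCF and FANCE were past the threshold on the higher side under miR-421, and FANCF under miR-338-5p.

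The FANCD2-FANCI pair, which the core complex marks with ubiquitin, was below 0 on all arrays, with 1 call for FANCD2. FANCD2 was -0.61, -0.52 and -0.47 on the miR-338-5p arrays (adjusted p = 0.0656) and -0.20, -0.94 and -0.43 on the miR-421 arrays, which passed (adjusted p = 0.0437). Without miR-421 replicate 1 the miR-421 mean of FANCD2 was -0.31 and the call was lost. A second FANCD2 probe had its calls the other way round, passing under miR-338-5p (-0.62, adjusted p = 0.0493) and not under miR-421 (-0.50, adjusted p = 0.0526). FANCI was -0.32, -0.92 and -0.72 on the miR-338-5p arrays and -0.016, -1.35 and -0.16 on the miR-421 arrays, all below 0 and short of the threshold (adjusted p = 0.182 and 0.222). Pseudogene copies of FANCD2 exist, and their share of its signal was not tested.

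Of 18 recombination genes with a tested probe, 2 fell in the miR-338-5p line and 6 in the miR-421 line. BRCA1 was 0.064 in replicate 1, -0.27 in replicate 2 and -0.58 in replicate 3 under miR-338-5p. Under miR-421 it was -1.31 in replicate 1, -0.28 in replicate 2 and -0.0027 in the pool. Replicate 1 of miR-421 stood far below the other arrays, and neither comparison passed (adjusted p = 0.581 and 0.189). The 10 repeat spots of the BRCA1 probe had an SD of at most 0.066 within an array.

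BARD1, the RING partner of BRCA1, was -0.68, -0.40 and -0.56 on the miR-338-5p arrays (adjusted p = 0.0808) and -0.38, -1.21 and -0.71 on the miR-421 arrays. Its fall to 58.6% of control under miR-421 passed (adjusted p = 0.0224). BRCA2, a mediator of recombination, was 0.029, -0.045 and -0.11 on the miR-338-5p arrays and -0.12, -0.19 and -0.25 on the miR-421 arrays, without overlap between the groups. Its probe was well above background in the miR-421 line on 0 of 3 arrays and in control on 2 of 3, so the miR-421 level is only a bound, at least 1.12-fold lower than control (adjusted p = 0.059). Measured means of the channels were 6.05 in control and 5.86 in the miR-421 line on the log2 scale. The bound sets the control mean against, per array, the higher of the lowest signal well above background and the probe's own. PALB2, the bridge between BRCA1 and BRCA2, was -0.032, -0.17 and -0.19 and -0.11, -0.34 and -0.13, short of the threshold (adjusted p = 0.277 and 0.091).

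Of RAD51B, RAD51C, RAD51D, XRCC2 and XRCC3, related proteins that support strand exchange, 1 of 5 fell in the miR-421 line, and limma called 0 in the miR-338-5p line (1 at an unadjusted p under 0.05). XRCC2 was -0.081, -0.36 and -0.28 on the miR-338-5p arrays (adjusted p = 0.0795) and -0.26, -0.21 and -0.27 on the miR-421 arrays (adjusted p = 0.0478). Its groups overlapped fully, and the image software's ratio for this dim probe was -0.98 and -1.19. RAD51B was 0.21, -0.0012 and 0.17 and 0.079, 0.13 and 0.13, above 0 on 5 of 6 arrays and passing in neither comparison. XRCC3 was -0.11, -0.72 and -0.20 and -0.54, -1.12 and -0.16 (adjusted p = 0.331 and 0.0772), but its other probe ran the opposite way. RAD51C and RAD51D fell on both sides of 0 in both lines.

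Of the 3 strand exchange partners, 2 fell under each miRNA. RAD54L, a motor protein that helps the broken strand invade the intact one, was -0.51 in replicate 1, -0.69 in replicate 2 and -0.54 in replicate 3 under miR-338-5p. Under miR-421 it was -0.18 in replicate 1, 0.074 in replicate 2 and 0.13 in the pool. The groups did not overlap, and RAD54L passed under miR-338-5p (-0.58 ± 0.095, adjusted p = 0.0159) but not under miR-421 (0.0085 ± 0.16, adjusted p = 0.953). Its difference between the lines was -0.59 (95% interval -0.86 to -0.32, adjusted p = 0.131).

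RAD54B, a relative of RAD54L, was -0.49 in replicate 1, -0.54 in replicate 2 and -1.11 in replicate 3 under miR-338-5p. Under miR-421 it was -1.19 in replicate 1, -1.33 in replicate 2 and -1.02 in the pool. Its levels averaged 61.1% (adjusted p = 0.0325) and 44.1% of control (adjusted p = 0.00611), and a second probe passed in both comparisons as well (-0.27 and -0.36). RAD51AP1, which promotes strand exchange, was 0.30, -0.30 and -0.29 on the miR-338-5p arrays and -0.61, -0.30 and -1.10 on the miR-421 arrays. It passed under miR-421 (adjusted p = 0.0481), and its difference between the lines was 0.57 (95% interval -0.053 to 1.20, adjusted p = 0.399).

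In the group that trims ends and unwinds DNA, 2 of 6 genes fell in the miR-421 line, and limma called 0 in the miR-338-5p line (3 at an unadjusted p under 0.05). RBBP8, the end resection factor also called CtIP, was -0.042 in replicate 1, -0.91 in replicate 2 and -0.9996 in replicate 3 under miR-338-5p (adjusted p = 0.104). Under miR-421 it was -1.09 in replicate 1, -0.75 in replicate 2 and -0.55 in the pool, 57.4% of control (adjusted p = 0.0408). Replicate 1 of miR-338-5p stood at control level while the other 5 arrays were lower, and the SD of 0.53 was the largest of the 36 genes under miR-338-5p.

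NBN, a subunit of the MRE11 complex, was -0.085, 0.058 and -0.47 on the miR-338-5p arrays and -0.35, -0.73 and -0.45 on the miR-421 arrays (adjusted p = 0.0343). The image software's ratio for NBN under miR-421 was -1.17. RAD50 was 0.041, -0.82 and -0.60 and -0.33, -0.72 and -0.90, close to the threshold under miR-421 (adjusted p = 0.0534), and MRE11A, the nuclease, was 0.13, 0.086 and -0.095 and -0.019, -0.14 and -0.18. The members of 1 complex thus gave 1 call among 3 genes. EXO1 and BLM, a nuclease and a helicase of long-range resection, averaged -0.41 and -0.38 in the miR-338-5p line, then -0.43 and -0.51 in the miR-421 line, with miR-421 replicate 1 the lowest array for both, and passed in neither comparison.

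Mismatch repair was represented by MSH6, which recognises mispaired bases, and PMS2, which nicks the strand to be replaced. MSH6 was -0.69, -1.08 and -0.59 on the miR-338-5p arrays and -0.18, -1.25 and -0.40 on the miR-421 arrays, all below 0 and short of the threshold (adjusted p = 0.0736 and 0.0881). PMS2 was 0.40, -0.02 and 0.33 on the miR-338-5p arrays and 0.39, 0.70 and 0.50 on the miR-421 arrays, where its rise to 144% of control passed (adjusted p = 0.0202). PMS2 belongs to a family with many near-identical pseudogenes. Of its 5 probes only the brightest passed, and the other 4 averaged between 0.085 and 0.20 under miR-421, so this rise is uncertain.

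PARP1, the enzyme that marks strand breaks with poly(ADP-ribose), was -0.24, -0.45 and -0.16 on the miR-338-5p arrays and -0.49, -0.51 and -0.045 on the miR-421 arrays. It was below 0 on all arrays and passed in neither comparison (adjusted p = 0.163 and 0.0707).

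Probes of 1 gene did not always run together. Of 13 genes with several tested probes, 9 had means of 1 sign under each miRNA. The widest split was MSH6: a probe designed on ENST00000454137 (at chr2:47935383-47935442, hg19), 98477 bases from the probe on NM_000179, gave 1.45 in replicate 1, 1.21 in replicate 2 and 0.22 in the pool under miR-421 and passed on the higher side (adjusted p = 0.0356). The NM_000179 probe gave values below 0 on the same arrays, and which transcript the distant probe reads was not tested. For XRCC3 the probe on NM_001100119 was above 0 on all 6 arrays, with means of 0.26 and 0.29, and the brighter probe on ENST00000557439 below 0 on all 6. That brighter probe shares a run of 16 bases with a probe of LOC284014. Over the 56 tested probes, 13 fell and 0 rose past the threshold under miR-338-5p, and 19 fell and 2 rose under miR-421.

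**Figure D2:**
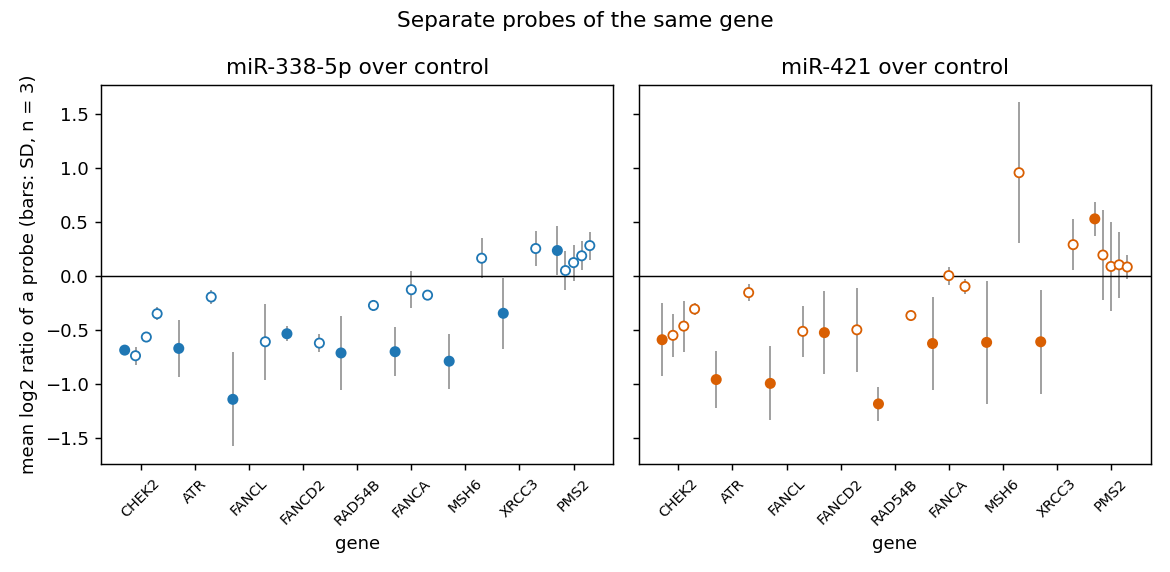
Mean log2 ratio of each tested probe (y axis; bars are SD over 3 arrays) for 9 genes with several probes, miR-338-5p on the left and miR-421 on the right. Filled circles mark the brightest probe, which represents the gene. The 4 CHEK2 probes lie below 0 in both panels, while MSH6 and XRCC3 have probes on both sides of 0.

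Sizes differed between the main processing and the image software's ratio. Of 8 genes with a mean log2 intensity under 7, a limit chosen after the values were seen, BRCA2 has only a bound under miR-421 and is left out of what follows. The other 7, PALB2, RAD51B, XRCC2, MRE11A, NBN, FANCB and TOPBP1, had a median log2 ratio under miR-421 of -0.25, against -1.19 with the image software's ratio. For the 28 brighter genes the same medians were -0.51 and -0.54. Under miR-338-5p the 7 dim genes moved from -0.17 to -0.50 and the brighter ones from -0.42 to -0.48. Among these dim genes, PALB2, XRCC2, MRE11A, FANCB and TOPBP1 were well above background in the miR-421 line on 2 of 3 arrays. Some brighter genes moved as well: under miR-421 the image software's ratio was -2.25 for FANCM, -1.69 for ATR and -1.15 for BARD1, against -1.53, -0.96 and -0.77.

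**Figure D3:**
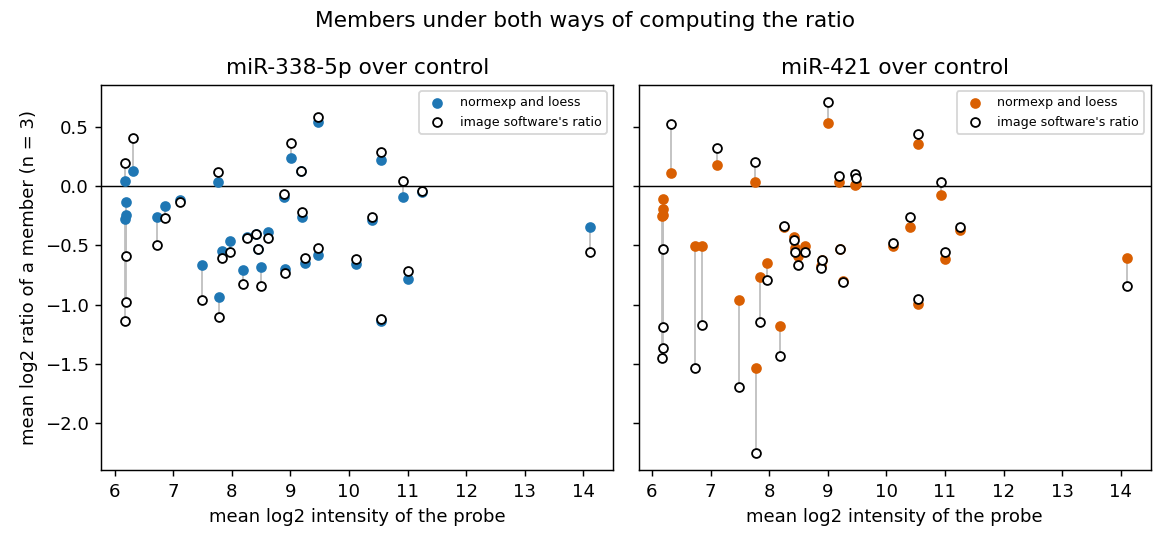
Mean log2 ratio of 35 genes (all tested but BRCA2; y axis, n = 3 arrays) against the mean log2 intensity of their probe (x axis), with filled circles for the main processing and open circles for the image software's ratio, joined by grey lines. Long lines are found at intensities under 8, as for TOPBP1 under miR-421 (-0.50 and -1.53) and ATR (-0.96 and -1.69).

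The lines were then compared directly. No gene of the 36 passed in the limma test of the difference (0 genes, and 0 in all 18 alternative settings), where 0.0461% of all gene names passed in either direction. At an unadjusted p under 0.05 there were 3, RAD54L, RAD54B and FANCM. FANCM was lower under miR-421, with a difference of miR-338-5p minus miR-421 of 0.60 (95% interval 0.22 to 0.97, adjusted p = 0.206), and RAD54B likewise, with 0.47 (95% interval 0.012 to 0.93, adjusted p = 0.357). In 4 of the 36 genes, BRCA2, RAD51AP1, RAD54L and FANCM, the 3 arrays of 1 group did not overlap those of the other, a share no higher than the 20.0% of all gene names for which this held. For most members the interval of the difference was wide: that of ATR was 0.29 (95% interval -0.17 to 0.74, adjusted p = 0.553) and that of CHEK2 -0.096 (95% interval -0.51 to 0.32, adjusted p = 0.853), so these data do not show that the lines act alike.

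Further genes of the same pathways were listed by name. Their background was 5.26% lower and 3.99% higher under miR-338-5p, and 12.6% lower and 10.0% higher under miR-421. Of 35 other recombination and Fanconi genes, 4 fell and 3 rose under miR-338-5p (11.4% and 8.57%), and 11 fell and 5 rose under miR-421 (31.4% and 14.3%), with medians of -0.062 and -0.29. DNA2, a nuclease of end resection, fell in both lines (-0.42 and -0.52), as did RPA1, which coats single-stranded DNA (-0.59 and -0.53). MUS81, a nuclease that cuts joint molecules, and TOP3A, a topoisomerase that resolves them, rose in both (0.62 and 0.50, and 0.49 and 0.45), as did ERCC1 (0.37 and 0.89). SHFM1, a small partner of BRCA2, fell in both (-0.57 and -0.63). WRN, a helicase, fell under miR-421 (-0.88, adjusted p = 0.0128), as did RPA3, a partner of RPA1 (-0.70).

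Of 18 other checkpoint genes, 5 fell under each miRNA (27.8%) and 0 rose. TIPIN, which protects forks with TIMELESS, averaged -1.10 ± 0.17 (adjusted p = 0.0173) and -1.47 ± 0.41 (adjusted p = 0.00531). MDC1, the scaffold that spreads the ATM signal on chromatin, averaged -1.02 ± 0.30 (adjusted p = 0.0132) and -0.93 ± 0.18 (adjusted p = 0.00851). CDC25A, the phosphatase that checkpoint kinases inactivate, fell in both as well (-0.48 and -0.49), and ETAA1, an activator of ATR, fell under miR-421 (-0.69). Of 5 other mismatch repair genes 1 fell, PMS1 under miR-421 (-1.11, adjusted p = 0.0143).

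End joining, the competing route of break repair, showed 1 fall of 12 in the miR-338-5p line (8.33%), with 2 falls and 2 rises in the miR-421 line (16.7% each). Over all gene names 5.26% fell under miR-338-5p, and 12.6% fell and 10.0% rose under miR-421, so these shares lay near the background. DCLRE1C, the nuclease Artemis, was the gene lower in both (-0.37 and -0.63), POLQ fell under miR-421 (-0.75), and XRCC1 (0.49) and POLL (0.33) rose there.

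Genes that mark dividing cells are given beside the repair genes. For both lists the background was 5.26% lower under miR-338-5p, and 12.6% lower and 10.0% higher under miR-421. Of 26 S phase markers 9 fell under miR-338-5p (34.6%), with 0 rises, and 10 fell and 2 rose under miR-421 (38.5% and 7.69%), with medians of -0.50 and -0.43. Among genes past the threshold, MCM6, a subunit of the replicative helicase, fell most under miR-338-5p (-0.9995). TYMS, which makes thymidylate (-0.80), and FEN1, a flap nuclease (-0.79), came next. RRM1, at -0.83, was short of the threshold (limma, adjusted p = 0.0559). Under miR-421 the largest falls past the threshold were RFC4, a subunit of the clamp loader (-0.94), and PCNA, the clamp itself (-0.92). CCNE2, a cyclin of S phase entry, followed (-0.88). The rises under miR-421 were MCM2 (0.74, adjusted p = 0.0311) and MCM5 (0.30), also helicase subunits. Of 18 G2 and M phase markers 4 fell under miR-338-5p (22.2%), and 5 fell and 1 rose under miR-421 (27.8% and 5.56%), with medians of -0.58 and -0.55. The largest falls past the threshold under miR-338-5p were MKI67 (-0.88), CCNA2, a cyclin (-0.76), and CENPE, a kinetochore motor (-0.64). Under miR-421 they were CENPF (-1.53), CENPE (-1.51) and CDK1, the mitotic kinase (-1.09), and PLK1 rose (0.43). NUSAP1 had the lowest mean of this list under miR-338-5p, -1.42, just short of the threshold (limma, adjusted p = 0.0504). The median of the S phase list on the miR-421 arrays was -0.25, -0.81 and -0.27, and that of the Fanconi genes -0.23, -0.94 and -0.22, so miR-421 replicate 1 was the lowest array for both. The part of cell division in the repair gene values was not tested. Fewer cells in cycle and less RNA per cell cannot be told apart in these bulk samples.

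Of 17 p53 target genes 1 rose in the miR-338-5p line (5.88%, against 3.99% of all gene names). In the miR-421 line 5 rose (29.4%, against 10.0%) and 1 fell (5.88%, against 12.6%). The single rise lay near the background and the single fall below it. Medians of the list were 0.092 and 0.46. SESN2, a stress-induced inhibitor of growth signalling, rose in both (1.01 and 1.23), and BBC3, a cell death gene, rose under miR-421 (0.90, adjusted p = 0.00672), as did TNFRSF10B, a death receptor (0.95). RRM2B, the p53-induced ribonucleotide reductase subunit, fell there (-0.49). The list median on the miR-421 arrays was 0.10, 0.69 and 0.48.

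**Figure D4:**
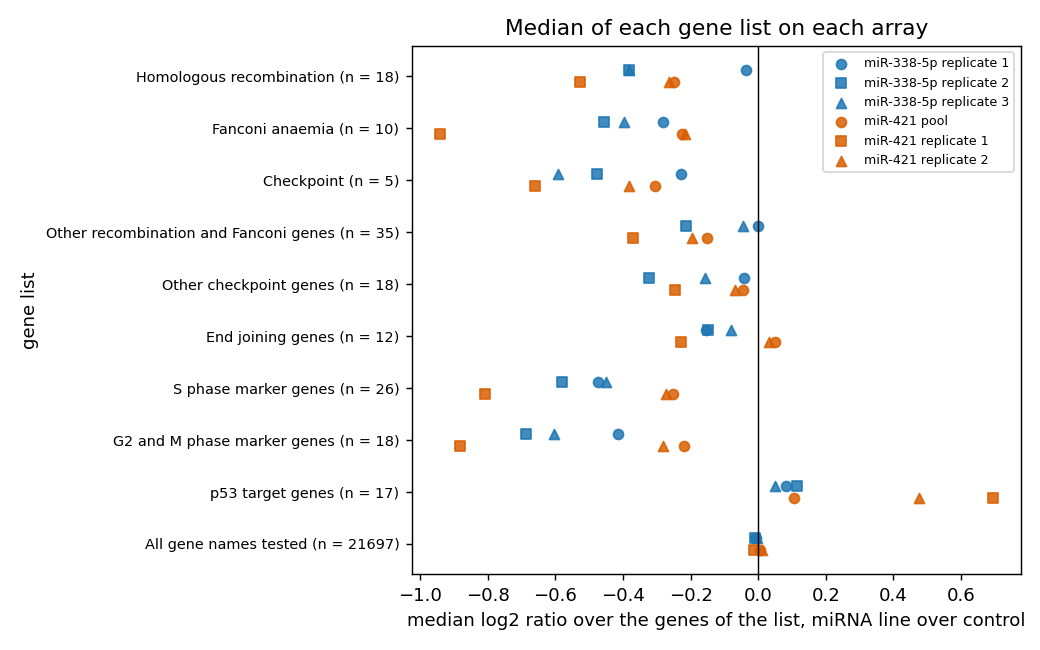
Median log2 ratio of the miRNA line over control (x axis) of each gene list (y axis, number of tested genes in brackets) on each of the 6 arrays; blue marks are miR-338-5p and orange marks miR-421. Replicate 1 of miR-421 is the lowest array in the recombination, Fanconi, S phase and G2 and M phase lists (-0.53, -0.94, -0.81 and -0.88) and the highest in the p53 list (0.69), while all arrays lie near 0 over all gene names.

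Promoters were read for the members because 7 of them were lower in both lines. RefSeq windows of 300 bases, from 250 before to 50 after the start (GRCh38.p14), matched 34 of 37 genes. FANCI, NBN and RAD54B had no entry. The E2F motif TTTGGCGC or TTTCGCGC, on either strand, was found in 3 of 34 genes (8.82%), EXO1, FANCC and TOPBP1, and in 1.4% of 27305 genes in the table. The CCAAT box was found in 16 (47.1%, against 39.7%) and the CHR element TTTGAA in 3 (8.82%, against 18.2%). Of the genes lower in both lines, FANCM, CHEK1 and CHEK2 held a CCAAT box, and ATR, FANCB and FANCL held none of the 3 motifs in the window. A match is a description of letters and says nothing of binding in these cells.

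The 250 bases before the start are printed for FANCM and CHEK2, which held CCAAT boxes, and for ATR and FANCL, which held none, with matches in capitals (ATTGG is CCAAT on the other strand).
FANCM, chr14:45135680-45135929, plus strand: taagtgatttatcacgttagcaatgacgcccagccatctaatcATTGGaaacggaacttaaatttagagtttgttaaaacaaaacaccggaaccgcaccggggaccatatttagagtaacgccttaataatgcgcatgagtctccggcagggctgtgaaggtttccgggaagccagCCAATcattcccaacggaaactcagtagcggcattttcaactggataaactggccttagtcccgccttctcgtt
CHEK2, chr22:28741821-28742070, minus strand: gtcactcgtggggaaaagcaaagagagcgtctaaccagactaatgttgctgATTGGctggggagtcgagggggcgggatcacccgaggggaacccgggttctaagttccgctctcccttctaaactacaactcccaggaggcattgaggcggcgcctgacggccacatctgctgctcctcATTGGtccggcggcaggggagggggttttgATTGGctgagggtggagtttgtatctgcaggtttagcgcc
ATR, chr3:142578734-142578983, minus strand: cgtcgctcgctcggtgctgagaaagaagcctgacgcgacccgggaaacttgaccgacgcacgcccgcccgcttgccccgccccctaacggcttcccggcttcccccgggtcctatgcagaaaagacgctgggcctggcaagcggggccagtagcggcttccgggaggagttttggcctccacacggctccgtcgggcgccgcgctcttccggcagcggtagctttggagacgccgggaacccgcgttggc
FANCL, chr2:58241326-58241575, minus strand: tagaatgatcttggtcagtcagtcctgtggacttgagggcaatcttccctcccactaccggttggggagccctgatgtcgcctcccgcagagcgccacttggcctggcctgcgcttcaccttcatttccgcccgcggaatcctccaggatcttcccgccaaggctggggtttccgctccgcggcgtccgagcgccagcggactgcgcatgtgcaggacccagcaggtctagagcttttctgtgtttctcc
FANCM held 2 matches and CHEK2 3. Sequence is that of the reference and was not read from these cells.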

How the data were processed

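Per the file headers, the authors scanned 1 slide with Feature Extraction 11.5.1.1, and probe coordinates are on hg19. The deposited intensity values are the mean brightness and local background median of each spot in either dye. The deposited log10 ratio is that software's processed Cy5 over Cy3. The deposited whole-series table holds log2 ratios per gene name, with scale and direction checked against the log10 ratio; its normalization is not given in the sources used here. Per the labels, RNA was poly(A)-tailed and labelled with oligo-dT priming.

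The background was corrected by normexp (offset 50), arrays were normalized by loess with control spots unweighted, outlier spots were left out and spots of 1 probe averaged. Of 58201 probes, 27503 stood well above background in Cy3 or Cy5 on 3 or more of the 6 arrays. All 6 arrays entered 1 limma fit (limma 3.58.1, R 4.3.3) with a mean per group, eBayes (prior degrees of freedom 2.05), two-sided tests and Benjamini-Hochberg adjustment over all tested probes. Numbers of arrays, not counts, limit the precision. If 1 control culture supplied every array, its own spread is left out.

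The fit was tested on simulated data. Members and gene lists were chosen with earlier results of these data known. Per-array values are given for members past the threshold, the extremes of each role, and ATM, ATR, CHEK1, CHEK2, BRCA1, BRCA2, FANCD2 and PARP1; of the other pathway, cell division and p53 lists, up to 3 genes past the threshold per direction and comparison with the largest change. One named gene and some markers are not reported here. Lists were described by counts and medians, with no test. Annotation of exons, introns and UTRs was not used here. Alternatives covered background correction, normalization, ratio source, filter, outlier spots, arrays left out, variance model, arrays in the fit, probes per gene and the replicate block.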

Additional observations from a re-analysis of the deposited data

How the results depend on the processing

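No direction of a called gene turned in any setting. The 8 genes past the threshold under miR-338-5p became 3 when local background was subtracted, when arrays were centred on the median, when the ratio came from the image software and when the authors' table was used. They were 4 with no filter on dim probes, 1 with only the 3 arrays of the group and 0 with a variance trend and robust eBayes in limma, where CHEK1 among others had an adjusted p of 0.0766 and 18 genes passed an unadjusted p of 0.05. Leaving out 1 array gave 0 to 15. The 16 under miR-421 became 6 with median centring, 8 with no filter and 8 with only the 3 arrays of the group, and 1 to 13 with 1 array left out. Other alternatives stayed within 1.5 times of the counts. The share of all gene names lower under miR-421 was 12.6% in the main fit. It was 7.92% with median centring, 8.80% with no filter and 9.12% with only the 3 arrays of the group. The median over the genes under miR-338-5p was -0.51 with the image software's ratio, against -0.28. The count for the difference was 0 in all 18 alternatives. Causes of these changes were not tested, apart from the fewer arrays or probes that a setting itself uses.

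FANCM under miR-421 passed in 18 of 18 alternatives, RAD54B and ATR in 17, where the lost call was without miR-421 replicate 2. Replicate numbers 1 and 2 occur in both groups, but the labels do not say that they pair samples. Deviations from the group means of same-numbered arrays correlated at -0.141 and -0.212. With the replicate block as a random term (consensus correlation -0.297) 9 and 14 genes passed in the comparisons with control and 0 in the difference, where a fixed block also gave 0. Signal near background limits the sizes given for the 8 dimmest genes, and sizes of brighter ones such as ATR and FANCM also moved with the image software's ratio.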
